A study of Homo sapiens with 6 samples.

Results

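The genes that break down the branched-chain amino acids leucine, isoleucine and valine were examined in 67R cells after knockdown of BCAT1, the first enzyme of the route. The 32 genes were chosen by name, as the enzymes, regulators and carrier of this catabolism together with the propionyl-CoA and ketone body steps that follow it, and all 32 were found among the 60664 genes of the table. Of these, 30 had a mean of at least 1 TPM (RNA abundance relative to the total of the library, corrected for the length of each gene) over the 6 libraries and were tested among 14286 genes. The other 2, ABAT and AGXT2, were low.

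67R cells are NCI-H1975 cells, an EGFR-mutant human lung adenocarcinoma line, that became resistant to the EGFR inhibitor ASK120067 under rising doses, and both groups share this background. In the siNC group the cells received a negative control siRNA, and in the siBCAT1 group an siRNA against BCAT1, with 3 libraries each. The groups therefore also differ in the siRNA itself, and the study's methods list a pair of BCAT1 siRNAs and give the second of them the name siBCAT1 that these libraries carry. The methods speak of independent experiments for the results in general, but the sources used here do not say this of the RNA-seq libraries themselves, nor how long after transfection the RNA was taken, so p-values measure the spread between these libraries, which may be technical. The question asked of these genes was how RNA for the rest of the pathway stood once its first enzyme was reduced.

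Breakdown begins with transamination, for which cells have a pair of enzymes, BCAT1 outside and BCAT2 inside the mitochondria. Each turns a branched-chain amino acid into its keto acid, and glutamate is formed from α-ketoglutarate. The BCKDH complex then decarboxylates the keto acids in an irreversible step, which the kinase BCKDK switches off by phosphorylation and the phosphatase PPM1K switches on. Beyond it the routes part: leucine carbons end in acetyl-CoA and acetoacetate, valine carbons in propionyl-CoA, and isoleucine carbons in acetyl-CoA and propionyl-CoA. Tumor cells often hold much of BCAT1 and can use it in the reverse direction, from keto acids to amino acids.

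The libraries summed to between 992512 and 995593 TPM and had between 23152 and 25043 genes above 0. TPM values carry no read counts, so depth and counting error are unknown. Pearson's r across genes of log2(TPM + 1) lay between 0.9636 and 0.9714 within groups and between 0.9429 and 0.9584 between them, so every library was closer to its own group than to the other. Of 10 epithelial and lung markers, 7 were at or above a mean of 1 TPM, with keratins KRT7, KRT8 and KRT18 abundant, while the lung lineage genes NKX2-1, NAPSA and SFTPB stayed at or under 0.33 TPM in every library. The summed level of the 10 markers was 2564 to 2970 TPM in siNC and 1664 to 1952 TPM in siBCAT1 libraries, a sum carried by KRT7, KRT8 and KRT18. CDH1, the epithelial cadherin, was at 12.46 to 28.83 TPM in siNC and 0.85 to 4.3 TPM in siBCAT1 libraries, and EPCAM was at 0.91 to 1.55 and 1.96 to 2.61 TPM. Of the markers of other cell types, CD3E and DCN were at 0 in all libraries and PECAM1 and VWF never exceeded 0.04 TPM, but CD68 was at 29.1 to 37.0 TPM in siNC and 52.1 to 60.0 TPM in siBCAT1 libraries and COL1A2 at 178 to 249 TPM over all libraries. Summed over their lists, 4 leukocyte markers were at 30.3 to 39.2 TPM in siNC and 53.5 to 60.7 TPM in siBCAT1, 4 fibroblast markers at 252 to 274 and 189 to 244 TPM, and 3 endothelial markers at 0.740 to 0.880 and 0.900 to 2.61 TPM. The part of these differences in the results below was not tested.

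After BCAT1 knockdown, 7 of the 30 tested breakdown genes were higher and 1, BCAT1 itself, was lower at an adjusted p under 0.05 (limma on log2(TPM + 1), Benjamini-Hochberg adjustment over all tested genes). The genes that rose were the regulators BCKDK and PPM1K, the leucine carboxylase subunits MCCC1 and MCCC2, the thiolase ACAT1, the epimerase MCEE and the ketone body enzyme OXCT1. Over all 14286 genes, 27.1% passed this threshold, 16.7% as higher and 10.4% as lower in siBCAT1 cells. Higher genes were 61.6% of all calls, but 52.1% with median-ratio scaling and 52.3% after quantile normalization. The count of lower genes, 1483, was 859 without siNC replicate 1, 958 without siBCAT1 replicate 2 and 987 without siBCAT1 replicate 3, and that of higher genes, 2382, was 1501 without siBCAT1 replicate 1. At an unadjusted p under 0.05 from limma there were 39.7% of all tested genes. The 8 members called are 26.7% of those tested, a share near the background, and the 7 that rose are 23.3%. The median log2 fold change was 0.18 over the 30 members, and 0.04 over all tested genes. Of the 29 members other than BCAT1, 26 had a log2 fold change above 0, whereas 54.4% of all tested genes did. Of those 26, DBT, HIBCH and HSD17B10 fell below 0 with median-ratio scaling, and IVD, HSD17B10 and HADHA after quantile normalization. The groups did not overlap, with siBCAT1 above siNC, for 14 of the 30 members (46.7%) and for 26.1% of all tested genes. Counting both directions, 44.1% of all tested genes had groups that did not overlap, and 16 of the 30 members did. With siBCAT1 below siNC, the groups did not overlap for 2 members, BCAT1 and BCAT2, and for 18.0% of all tested genes.

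**Figure D1:**
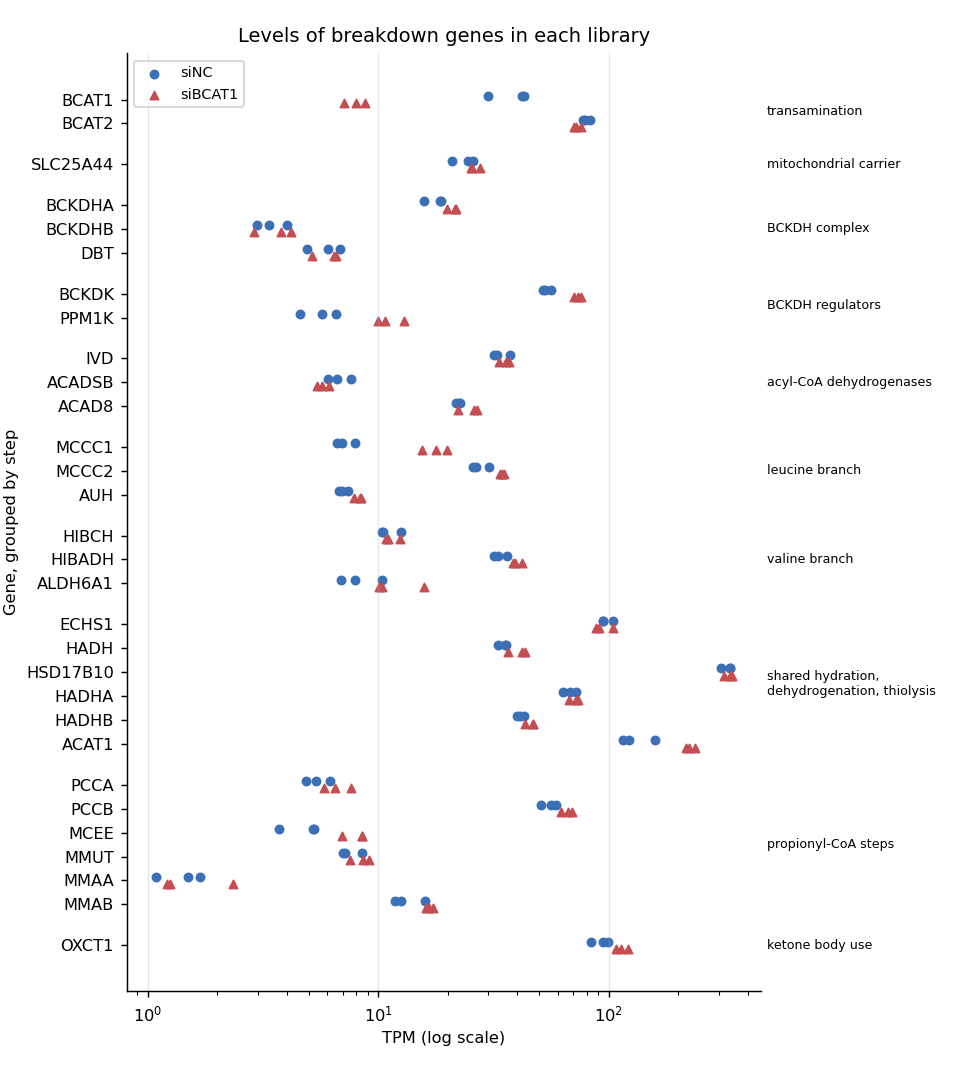
TPM of the 30 tested genes on a log axis, with 1 point per library (circles siNC, triangles siBCAT1) and genes ordered by step of the pathway. HSD17B10, at a mean of 328 TPM, and MMAA, at 1.51 TPM, mark the ends of the range, and the BCAT1 libraries separate most clearly.

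The levels of the members spanned a wide range. TPM is scaled for gene length, so levels can be set side by side: HSD17B10 had the highest mean over the 6 libraries (328 TPM), followed by ACAT1 (179 TPM), OXCT1 (103 TPM) and ECHS1 (95.9 TPM), whereas BCKDHB (3.53 TPM) and MMAA (1.51 TPM) were the lowest of the tested genes. The order of OXCT1 and ECHS1 differed between the groups, with 92.4 ± 8.18 and 97.7 ± 5.52 TPM in siNC and 114 ± 6.72 and 94.2 ± 8.76 TPM in siBCAT1 libraries (SD, n = 3 each). Without BCAT1, the members summed to 1213, 1280 and 1190 TPM in siNC replicates 1, 2 and 3 and to 1450, 1452 and 1394 TPM in siBCAT1 replicates 1, 2 and 3. These sums do not overlap, and they are weighted towards the abundant genes: the mean of ACAT1 alone went from 132 to 225 TPM.

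The targeted transaminase fell. BCAT1 (ENSG00000060982, GRCh38 chromosome 12, 24810022 to 24949459, minus strand) was at 42.7, 42.2 and 29.8 TPM in the siNC libraries and at 8.78, 7.10 and 8.0 TPM in the siBCAT1 libraries. All siBCAT1 values lay far under the lowest siNC value, which was that of replicate 3. The log2 fold change was -2.12 (SE 0.15, adjusted p = 0.000272 from limma). As the RNA is that of a whole culture, fewer cells with BCAT1 RNA and less of it per cell cannot be told apart.

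BCAT2, the mitochondrial transaminase, was not higher in any siBCAT1 library. Its values were 78.5, 77.2 and 83.0 TPM in siNC and 72.04, 75.92 and 70.43 TPM in siBCAT1 libraries. Every siBCAT1 library was below every siNC library, but the log2 fold change of -0.13 (SE 0.06, 95% interval -0.27 to 0.02) did not pass the threshold (adjusted p = 0.175 from limma). Over the 13 alternatives limma's adjusted p lay between 0.0359 and 0.378, and it passed only after quantile normalization, with a log2 fold change of -0.22. BCAT2 was already the more abundant transaminase RNA in siNC cells, where BCAT1 made up 35.2%, 35.3% and 26.4% of the summed TPM of both. In siBCAT1 cells this share was 10.9%, 8.55% and 10.2%. The summed TPM of both transaminases went from 118 ± 4.44 to 80.8 ± 2.30 TPM (SD, n = 3 each). Within a library, the ratio of BCAT1 to BCAT2 was 0.483 ± 0.108 in siNC and 0.110 ± 0.0146 in siBCAT1 (SD, n = 3 each), with no overlap. The exact permutation test, two-sided, gave p = 0.1, the smallest that 3 libraries against 3 allow. As BCAT1 is the target of the siRNA, a fall of this ratio was set by the design, and the test adds nothing to the knockdown.

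SLC25A44, which carries branched-chain amino acids into mitochondria, was at 25.8, 24.6 and 20.8 TPM in siNC and 25.2, 27.5 and 25.5 TPM in siBCAT1 libraries. The groups overlapped, and the log2 fold change was 0.14 (95% interval -0.09 to 0.36, adjusted p = 0.347 from limma).

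**Figure D2:**
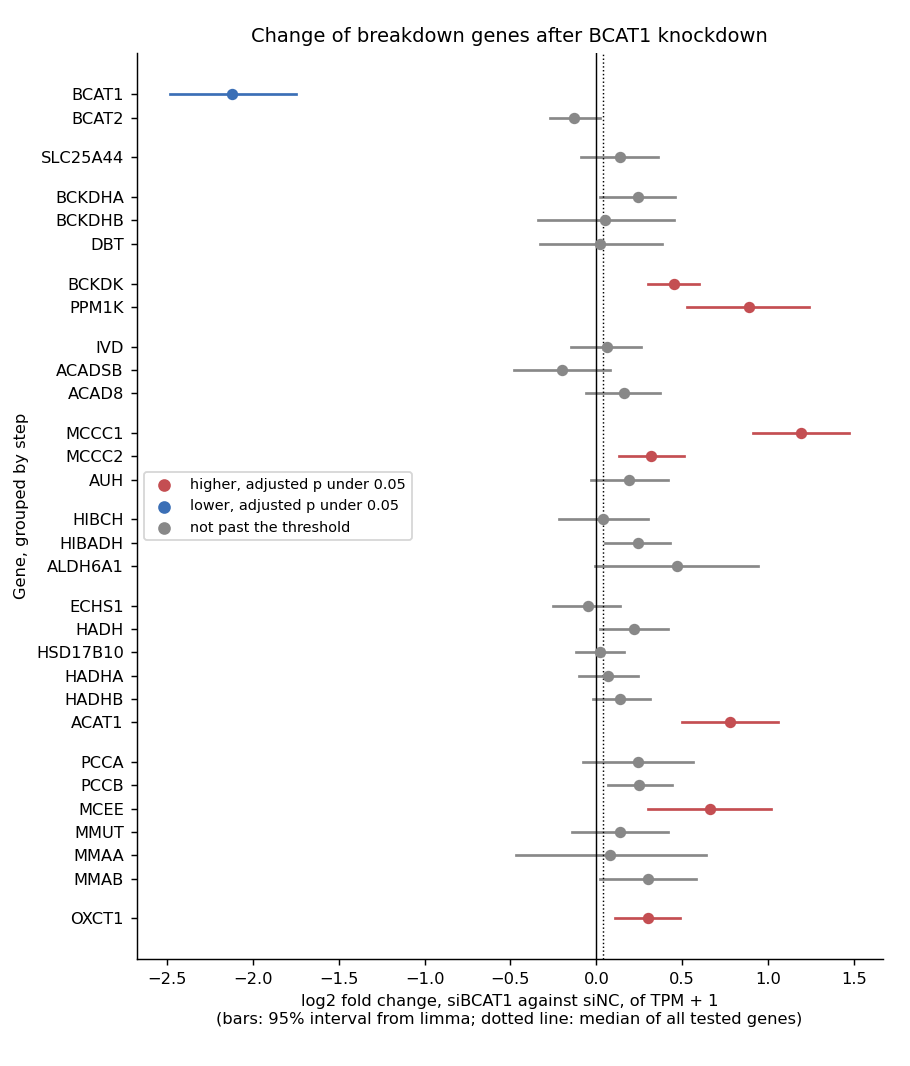
Log2 fold change of TPM + 1 between siBCAT1 and siNC for the 30 tested genes, with 95% intervals from limma and the median of all tested genes (0.04) as a dotted line. BCAT1 lies at -2.12, and MCCC1 at 1.19 and PPM1K at 0.89 lie farthest to the right.

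None of the 3 tested subunits of the BCKDH complex passed limma's adjusted threshold, and 1, BCKDHA, had an unadjusted p under 0.05, as did 39.7% of all tested genes. BCKDHA and BCKDHB form the E1 decarboxylase and DBT is the E2 core. BCKDHA was at 18.5, 15.7 and 18.7 TPM in siNC and 19.8, 21.6 and 21.5 TPM in siBCAT1 libraries, groups that did not overlap, with a log2 fold change of 0.24 (95% interval 0.02 to 0.46) that missed the threshold after adjustment (adjusted p = 0.106 from limma). BCKDHB was at 2.97, 4.0 and 3.34 TPM in siNC and 3.80, 4.17 and 2.88 TPM in siBCAT1 libraries, a log2 fold change of 0.05 (95% interval -0.34 to 0.45, adjusted p = 0.844 from limma). DBT was at 6.84, 6.07 and 4.89 TPM in siNC and 6.53, 6.44 and 5.13 TPM in siBCAT1 libraries, a log2 fold change of 0.02 (95% interval -0.33 to 0.38, adjusted p = 0.924 from limma). For BCKDHB and DBT the intervals still allow changes of about the size seen for MCCC2. BCKDHA RNA exceeded BCKDHB RNA 5.26 ± 1.2 times in siNC and 5.95 ± 1.31 times in siBCAT1 libraries (SD, n = 3 each), with p = 0.6 in an exact permutation test of the log2 ratio, which was chosen after the values were seen. BCKDHA overlaps EXOSC5 on the opposite strand (means of 28.2 and 30.8 TPM), and whether strand was used in counting is not given in the sources used here.

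Both regulators of the complex rose, although they act against each other. BCKDK, the inhibitory kinase (ENSG00000103507, GRCh38 chromosome 16, 31106107 to 31112791), was at 56.2, 51.9 and 52.8 TPM in siNC and 73.8, 75.9 and 70.6 TPM in siBCAT1 libraries. The groups were well apart, and the log2 fold change was 0.45 (SE 0.06, adjusted p = 0.00307 from limma). PPM1K, the activating phosphatase (ENSG00000163644, GRCh38 chromosome 4, 88257620 to 88284769), was at 5.69, 6.56 and 4.57 TPM in siNC and 12.9, 10.7 and 9.93 TPM in siBCAT1 libraries. The lowest siBCAT1 value was above the highest siNC value, and the log2 fold change was 0.89 (SE 0.15, adjusted p = 0.00609 from limma). The kinase RNA stayed the more abundant in every library. The ratio of BCKDK to PPM1K was 9.88, 7.91 and 11.6 in siNC and 5.70, 7.11 and 7.11 in siBCAT1 libraries, a difference of the log2 ratio of TPM + 1 of -0.44. The groups did not overlap, and the two-sided exact permutation test gave p = 0.1, the smallest it allows.

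The promoters of these regulators are shown because both rose while the complex did not pass the threshold. The windows cover 250 bases before and 50 bases after the start in RefSeq (GRCh38.p14), 5′ to 3′, and capitals mark matches to the motifs searched on both strands. The BCKDK window is chr16:31108136-31108435 on the plus strand and the PPM1K window chr4:88284512-88284811 on the minus strand.
BCKDK: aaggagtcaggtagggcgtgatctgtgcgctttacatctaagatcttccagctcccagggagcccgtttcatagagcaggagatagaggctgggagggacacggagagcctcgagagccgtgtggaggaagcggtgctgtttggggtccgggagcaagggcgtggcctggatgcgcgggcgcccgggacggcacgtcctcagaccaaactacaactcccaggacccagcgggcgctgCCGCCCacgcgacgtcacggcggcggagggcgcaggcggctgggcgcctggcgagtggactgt
PPM1K: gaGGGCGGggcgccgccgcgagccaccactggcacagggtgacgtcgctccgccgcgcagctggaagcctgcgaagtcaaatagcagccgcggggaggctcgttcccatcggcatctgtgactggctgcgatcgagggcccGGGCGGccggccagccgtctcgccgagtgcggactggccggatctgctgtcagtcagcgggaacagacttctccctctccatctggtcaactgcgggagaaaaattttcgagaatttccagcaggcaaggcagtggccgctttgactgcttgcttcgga
The BCKDK window has a single match, a GC box (GGGCGG or its complement) whose first base is 13 bases before the start. The PPM1K window has a pair of GC boxes, which begin 248 and 109 bases before the start. RefSeq lists 1 window for each, with a start 2279 bases inside the 5′ end of the GENCODE 29 gene for BCKDK and 208 bases inside it for PPM1K. GC boxes stand in 44.6% of all 27305 windows of this length and in 26 of the 30 members found in the table, whose median GC content was 65.7% against 58.3% over all windows.

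**Figure D3:**
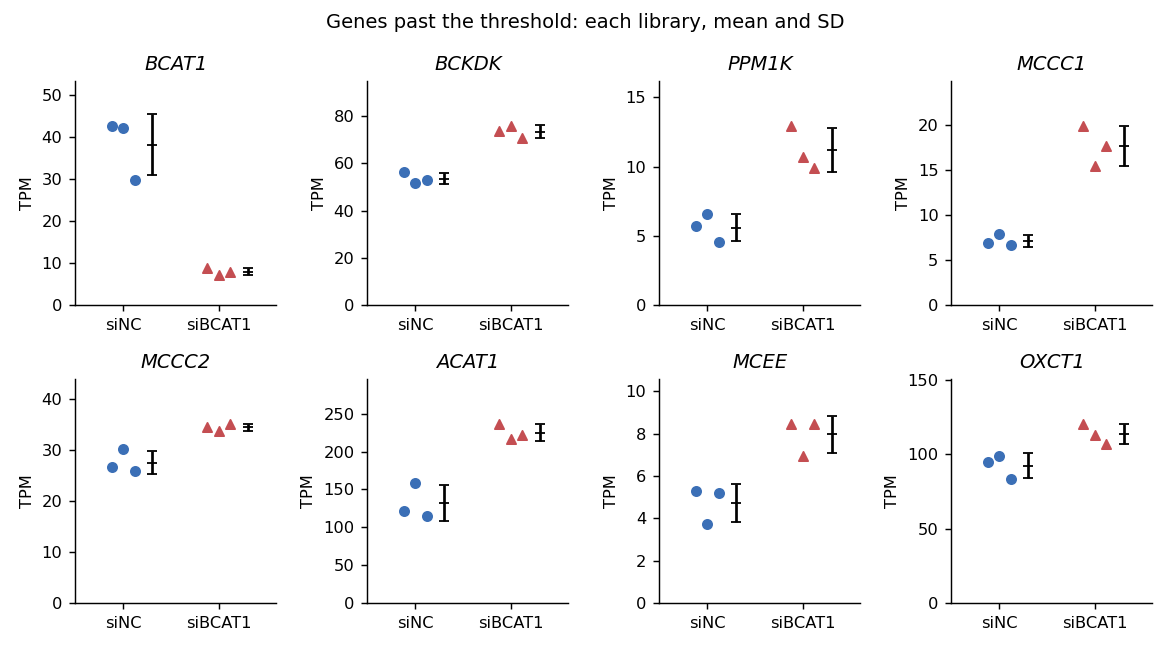
TPM in each library (points), with mean and SD (bars), for the 8 genes with an adjusted p under 0.05. BCAT1 fell to 7.96 TPM on average, and the other 7 genes had all siBCAT1 points above all siNC points.

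The acyl-CoA dehydrogenases, which act next, did not pass the threshold. IVD, of the leucine route, was at 34.0 ± 2.98 and 35.3 ± 1.88 TPM (SD, n = 3 each), and its log2 fold change was 0.06 (95% interval -0.15 to 0.26). ACADSB, of the isoleucine route, was at 6.78 ± 0.804 and 5.74 ± 0.337 TPM (SD, n = 3 each), and its log2 fold change was -0.20 (95% interval -0.48 to 0.08). ACAD8, of the valine route, was at 22.2 ± 0.510 and 25.0 ± 2.47 TPM (SD, n = 3 each), and its log2 fold change was 0.16 (95% interval -0.06 to 0.37). The siNC and siBCAT1 libraries overlapped for all 3, whereas 44.1% of all tested genes had groups that did not overlap, and none had an unadjusted p under 0.05 from limma, against 39.7% of all tested genes.

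The leucine branch held the largest rise among the members. MCCC1 and MCCC2 are the subunits of methylcrotonyl-CoA carboxylase, the biotin enzyme of leucine breakdown, with the biotin on MCCC1. MCCC1 (ENSG00000078070, GRCh38 chromosome 3, 183015218 to 183116075) was at 6.94, 7.93 and 6.63 TPM in siNC and 19.9, 15.5 and 17.7 TPM in siBCAT1 libraries. Every siBCAT1 value was well above every siNC value, and on the TPM scale the mean rose 2.47-fold. The log2 fold change was 1.19 (SE 0.12, adjusted p = 0.000874 from limma). MCCC1-AS1, on the opposite strand, averaged 1.69 TPM under siNC and 2.54 TPM under siBCAT1, and its part in the MCCC1 values was not tested. MCCC2 (ENSG00000131844, GRCh38 chromosome 5, 71587288 to 71658704) was at 26.6, 30.1 and 25.9 TPM in siNC and 34.4, 33.8 and 35.2 TPM in siBCAT1 libraries. The groups did not overlap, and the log2 fold change was 0.32 (SE 0.08, adjusted p = 0.0258 from limma). It was past the threshold in 6 of 13 alternatives, and with 1 library left out the threshold was kept only without siNC replicate 2. AUH, the hydratase after the carboxylase, was at 6.76, 7.39 and 6.98 TPM in siNC and 8.34, 8.39 and 7.87 TPM in siBCAT1 libraries, which did not overlap, with a log2 fold change of 0.19 and an adjusted p of 0.177 from limma.

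MCCC1 and MCCC2 did not move by the same amount. Their ratio, taken up after the values were seen, was 0.261, 0.263 and 0.256 in siNC and 0.578, 0.458 and 0.504 in siBCAT1 libraries. The siNC ratios lay close together and all siBCAT1 ratios were higher, a difference of the log2 ratio of TPM + 1 of 0.87. The two-sided exact permutation test gave p = 0.1, the smallest it allows. As the ratio was chosen with these values known, the test adds nothing to them. PCCA and PCCB, the subunits of the other biotin carboxylase here, were also paired after the values were seen. They gave ratios of 0.0987 ± 0.0101 in siNC and 0.101 ± 0.0193 in siBCAT1 (SD, n = 3 each), and their groups overlapped (p = 1 in the same exact permutation test).

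The promoters of the carboxylase subunits are shown since the genes of 1 enzyme rose to different extents. The first RefSeq window of MCCC1 is chr3:183099447-183099746 on the minus strand, and that of MCCC2 chr5:71587090-71587389 on the plus strand. Capitals again mark motif matches.
MCCC1: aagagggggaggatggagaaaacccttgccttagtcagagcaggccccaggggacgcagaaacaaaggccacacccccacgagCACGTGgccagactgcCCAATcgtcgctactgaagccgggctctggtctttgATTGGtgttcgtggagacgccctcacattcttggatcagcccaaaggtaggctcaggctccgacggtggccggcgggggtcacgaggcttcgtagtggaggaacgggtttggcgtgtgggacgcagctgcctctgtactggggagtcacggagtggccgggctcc
MCCC2: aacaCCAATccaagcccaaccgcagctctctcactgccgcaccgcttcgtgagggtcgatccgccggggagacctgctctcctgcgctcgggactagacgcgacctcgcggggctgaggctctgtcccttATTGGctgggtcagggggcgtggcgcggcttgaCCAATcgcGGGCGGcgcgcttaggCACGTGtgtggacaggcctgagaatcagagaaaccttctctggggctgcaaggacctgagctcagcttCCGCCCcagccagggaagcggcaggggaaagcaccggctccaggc
Both windows hold an E-box (CACGTG), which begins 167 bases before the start in MCCC1 and 63 bases before it in MCCC2, and CCAAT boxes (CCAAT or ATTGG), of which MCCC1 has a pair and MCCC2 has 3. The MCCC2 window also holds a pair of GC boxes, which begin 79 bases before the start and at base 6 counted from it, and the printed MCCC1 window holds none. RefSeq lists 3 windows for MCCC1, whose starts lie between 16488 and 16832 bases inside the 5′ end of the gene as GENCODE 29 annotates it, and 1 for MCCC2. None of the 3 MCCC1 windows holds a GC box, and the second holds no match to any of the 7 motifs. Which start these cells use was not tested. An E-box of these letters stands in 7.43% of all windows and in 3 of the 30 members, the third being BCAT1, and a CCAAT box in 35.7% of all windows and in 16 of the 30 members. A match describes the letters of the window and says nothing of a bound factor.

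**Figure D4:**
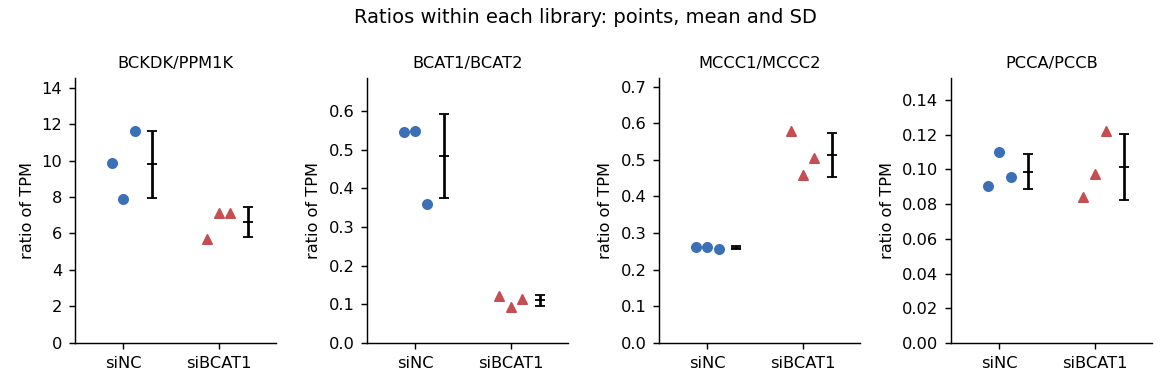
Ratio of the TPM of 2 genes within each library (points), with mean and SD (bars). BCAT1/BCAT2 and BCKDK/PPM1K were lower and MCCC1/MCCC2 higher in every siBCAT1 library, whereas PCCA/PCCB overlapped around 0.0987 in siNC and 0.101 in siBCAT1.

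None of the 3 tested genes of the valine branch passed the adjusted threshold of limma, and 1, HIBADH, had an unadjusted p under 0.05, against 39.7% of all tested genes. HIBADH, which oxidizes hydroxyisobutyrate, was at 36.2, 31.7 and 33.1 TPM in siNC and 42.2, 38.3 and 39.1 TPM in siBCAT1 libraries. Its groups did not overlap, and the adjusted p of 0.0616 from limma lay just outside the threshold (log2 fold change 0.24, 95% interval 0.05 to 0.43). HIBADH passed in 2 of 13 alternatives, at a mean of at least 5 TPM (adjusted p = 0.0496 from limma) and with the replicate number as a block (0.0308), and the highest adjusted p was 0.174. ALDH6A1, which makes propionyl-CoA from the semialdehyde, was at 10.3, 6.88 and 7.94 TPM in siNC and 15.85, 10.02 and 10.38 TPM in siBCAT1 libraries. The siBCAT1 replicate 1 library stood above the rest and the groups overlapped, with a log2 fold change of 0.47 (95% interval -0.01 to 0.94, adjusted p = 0.131 from limma). Without that library the log2 fold change of ALDH6A1 was 0.27 (adjusted p = 0.313 from limma, the highest of the 13 alternatives), and it passed only with the replicate number as a block (0.0177). HIBCH, the hydrolase, was at 11.1 ± 1.21 and 11.4 ± 0.893 TPM (SD, n = 3 each). ABAT, a transaminase that also acts on GABA, was at 0.530, 0.370 and 0.680 TPM in siNC and 0.180, 0.0800 and 0.130 TPM in siBCAT1 libraries. Those groups did not overlap, but the gene was under 1 TPM and not part of the main test. With no filter on low values its log2 fold change was -0.43 (SE 0.10, adjusted p = 0.0519 from limma). AGXT2, a liver and kidney aminotransferase, was listed at 0 in all libraries but siBCAT1 replicate 1, which had 0.0900 TPM.

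Among the enzymes that hydrate, oxidize and cleave the acyl chains of several routes, 1 of 6, ACAT1, passed the threshold (16.7%, the same share as the 16.7% of all tested genes that were higher). ACAT1 is the mitochondrial thiolase that ends isoleucine breakdown and also acts on acetoacetyl-CoA (ENSG00000075239, GRCh38 chromosome 11, 108121516 to 108147776). It was at 122, 159 and 115 TPM in siNC and 237, 216 and 222 TPM in siBCAT1 libraries. The groups were apart by more than their spread, and the log2 fold change was 0.78 (SE 0.12, adjusted p = 0.00379 from limma). HADH, an hydroxyacyl-CoA dehydrogenase, was at 35.8, 33.0 and 35.3 TPM in siNC and 43.1, 41.9 and 36.7 TPM in siBCAT1 libraries, without overlap but with an adjusted p of 0.0971 from limma. HADHA and HADHB, the subunits of the trifunctional protein, have neighbouring starts on opposite strands of chromosome 2 and annotated genes that overlap. Their log2 fold changes were 0.07 (95% interval -0.10 to 0.24) and 0.14 (95% interval -0.02 to 0.31). HADHA also has 2 annotated pseudogenes that could share reads. HSD17B10, which oxidizes the isoleucine intermediate, was at 306, 336 and 337 TPM in siNC and 315, 341 and 335 TPM in siBCAT1 libraries (log2 fold change 0.02, 95% interval -0.12 to 0.16). ECHS1, the short-chain hydratase, was at 97.7 ± 5.52 and 94.2 ± 8.76 TPM (SD, n = 3 each), and its log2 fold change was -0.05 (95% interval -0.25 to 0.14).

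The 6 propionyl-CoA genes, which turn the end product of valine and isoleucine into succinyl-CoA, all had log2 fold changes above 0, as did 54.4% of all tested genes, and 1 of them (16.7%) was higher past the threshold, a share equal to the 16.7% of all tested genes. MCEE, the epimerase (ENSG00000124370, GRCh38 chromosome 2, 71109684 to 71130239), was at 5.28, 3.71 and 5.18 TPM in siNC and 8.48, 6.97 and 8.48 TPM in siBCAT1 libraries. The groups did not overlap, and the log2 fold change was 0.66 (SE 0.15, adjusted p = 0.0192 from limma). It missed the threshold with no filter on low values (adjusted p = 0.0626 from limma) and without siBCAT1 replicate 1 (0.0661) or siBCAT1 replicate 3 (0.0636). PCCB, the carboxyltransferase subunit, was just outside the threshold, at 59.1, 55.9 and 50.6 TPM in siNC and 68.9, 66.5 and 62.2 TPM in siBCAT1 libraries (log2 fold change 0.25, adjusted p = 0.0532 from limma), again without overlap. PCCB passed at a mean of at least 5 TPM (adjusted p = 0.0445 from limma) and with the replicate number as a block (0.0217), and the highest adjusted p over the 13 alternatives was 0.152. MMAB, which adenosylates cobalamin for the mutase, was at 15.9, 12.6 and 11.8 TPM in siNC and 17.3, 16.0 and 16.5 TPM in siBCAT1 libraries (log2 fold change 0.30, adjusted p = 0.106 from limma), without overlap. Over the 13 alternatives limma's adjusted p lay between 0.0362 and 0.261, and it passed only without siNC replicate 1. MMAB overlaps MVK on the opposite strand, whose mean was lower in siBCAT1 libraries (12.7 TPM). PCCA, the biotin subunit, MMUT, the mutase, and MMAA, its chaperone, had overlapping groups and log2 fold changes of 0.24, 0.14 and 0.08.

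OXCT1, which activates acetoacetate for use as fuel (ENSG00000083720, GRCh38 chromosome 5, 41730065 to 41870519), was at 94.7, 99.2 and 83.4 TPM in siNC and 121, 113 and 107 TPM in siBCAT1 libraries. The groups did not overlap, and the log2 fold change was 0.30 (SE 0.08, adjusted p = 0.0344 from limma), the highest adjusted p among the members called. It was past the threshold in 5 of 13 alternatives, and of the fits without 1 library only that without siNC replicate 2 kept it.

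BCAT1, BCKDK, PPM1K, MCCC1 and ACAT1 passed the threshold in all 13 alternatives, whereas the calls of MCCC2, MCEE and OXCT1 depended on the setting. The count of members that rose, 7, was 4 of 30 without siBCAT1 replicate 1 and 4 of 30 without siBCAT1 replicate 3, where 10.5% and 11.7% of all tested genes were higher. It was 9 of 28 at a mean of at least 5 TPM, where HIBADH and PCCB joined and 21.7% of all tested genes were higher. With the replicate number as a block it was 10 of 30, where ALDH6A1 joined as well, against 19.4% of all tested genes. With median-ratio scaling the count was 6 of 30, against 13.7% of all tested genes. After quantile normalization it was 5 of 30, against 14.3%.

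Genes outside the 32 members that serve the same reactions were described from 4 lists. Of 21 tested other degradation and ketone body enzymes, 3 were higher (14.3%, against 16.7% of all tested genes) and 3 lower (against 10.4%) after knockdown, and the median log2 fold change was 0.06. With median-ratio scaling 1 of the 21 was higher and 4 lower, where 13.7% and 12.6% of all tested genes were. Limma without trend gave 1 higher and 2 lower, against 14.6% and 9.43% of all tested genes. With 1 library left out, between 0 and 2 were higher and 1 or 2 lower, and none was higher without siNC replicate 3 or without siBCAT1 replicate 1. AOX1, an aldehyde oxidase, rose from 2.32 ± 0.233 to 4.97 ± 1.74 TPM (log2 fold change 0.80, limma adjusted p = 0.0427), and ALDH7A1, an aldehyde dehydrogenase, from 51.1 ± 3.71 to 64.0 ± 3.55 TPM (0.32, adjusted p = 0.0228 from limma). ACAA2, a mitochondrial thiolase of fatty acid oxidation, fell from 42.8 ± 1.28 to 32.2 ± 2.10 TPM (-0.40, adjusted p = 0.00827 from limma), and ALDH3A2, a fatty aldehyde dehydrogenase, from 22.1 ± 1.04 to 16.2 ± 3.17 TPM (-0.44, adjusted p = 0.0454 from limma), with SD and n = 3 throughout. ACAA2 passed in all 13 alternatives, ALDH7A1 in 10, ALDH3A2 in 6 and AOX1 in 3. With 1 library left out, ALDH3A2 and AOX1 each passed in 1 of 6 fits. Of the genes of this list that were not called, BDH1, of ketone body metabolism, passed as higher in 4 of 13 alternatives and ALDH9A1, an aldehyde dehydrogenase, as lower in 3. The thiolases ACAT1 and ACAA2 thus changed in opposite directions, while ACAT2, the cytosolic thiolase, was at 44.6 ± 1.82 and 43.6 ± 0.521 TPM (SD, n = 3 each). DLD, the E3 subunit that the BCKDH complex shares with other dehydrogenases, was at 91.2 ± 11.0 and 94.8 ± 5.81 TPM (SD, n = 3 each).

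Of 5 tested genes for electron transfer and lipoate, 3 were higher (60.0%, against 16.7% of all tested genes). With 1 library left out the count lay between 1 and 3, and it was 1 without siNC replicate 1 or 3 and without siBCAT1 replicate 1 or 3. ETFA and ETFB form the flavoprotein that takes electrons from the acyl-CoA dehydrogenases. ETFB was at 132, 125 and 129 TPM in siNC and 182, 172 and 179 TPM in siBCAT1 libraries, a log2 fold change of 0.46 (SE 0.05, adjusted p = 0.00122 from limma), and the groups were far apart. ETFA had a log2 fold change of 0.23 (adjusted p = 0.0259 from limma). ETFDH, the next carrier, was below siNC in every siBCAT1 library but not past the threshold (log2 fold change -0.25, adjusted p = 0.147 from limma). LIPT1, a lipoyl transferase, rose from 3.75 ± 0.615 to 6.66 ± 1.77 TPM (SD, n = 3 each, adjusted p = 0.0404 from limma). ETFB passed in all 13 alternatives, ETFA in 6 and LIPT1 in 5.

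None of 9 genes for biotin and cobalamin handling and none of 2 tested transcriptional regulators, PPARA and ESRRA, passed limma's adjusted threshold. At an unadjusted p under 0.05 there were 2 of the 9 and 1 of the 2, against 39.7% of all tested genes. LMBRD1, a lysosomal cobalamin exporter, was the nearest (log2 fold change -0.47, adjusted p = 0.0510 from limma). It passed as lower in 3 of 13 alternatives, with a pseudocount of 0.1, with median-ratio scaling and with limma without trend. SLC5A6, a biotin transporter, passed as higher in 1, without siNC replicate 2, and neither regulator passed in any. KLF15 and PPARGC1A, known activators of branched-chain amino acid breakdown in muscle and liver, were low, with group means of at most 0.150 and 0.0900 TPM. MLXIPL, of the same list, was also low, with means of 0.477 TPM in siNC and 0.163 TPM in siBCAT1 libraries, which did not overlap. With no filter on low values none of the 5 regulators passed.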

How the data were processed

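RNA-seq was examined in 6 libraries of 67R cells, 3 siNC and 3 siBCAT1, grouped and numbered by their labels. The authors prepared stranded mRNA libraries and, per the labels, processed reads with fastp, HISAT2 and StringTie on GRCh38. Versions and annotation are not given in the sources used here. They deposited 1 TPM value per gene and library with a gene length, a unit taken from the values themselves. No replicates were pooled, and libraries of a group differed in at least 14083 tested genes.

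Values were taken as log2(TPM + 1), a scale that understates changes of low genes. The test was limma (version 3.58.1, R version 4.3.3; a linear model with trended empirical Bayes variances), two-sided, over genes whose mean reached 1 TPM, with p-values adjusted by Benjamini-Hochberg and called under 0.05. The script was tested on simulated data. Ratios within a library were compared by an exact permutation test. Depth is unknown, so precision rests on 3 libraries per group.

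The members, lists and tests were chosen with earlier results of these data known. All members whose mean reached 1 TPM were described. Values in every library were given for those past the threshold and for the transaminases, the BCKDH complex and its regulators, and after the values were seen for SLC25A44, AUH, HIBADH, ALDH6A1, HADH, HSD17B10, PCCB, MMAB, the low genes and ETFB. From each list the called genes were named, at most 4 by size of change. ACADM, AACS, DLD, ACAT2, BDH1, ALDH9A1, ETFDH, LMBRD1, SLC5A6, KLF15, PPARGC1A, MLXIPL, PPARA and ESRRA were named after their values were seen.

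Gene positions are from GENCODE 29 on GRCh38. Promoter windows are from RefSeq (GRCh38.p14), the first per gene, for 30 of 32 members. The 7 motifs were the CCAAT box (CCAAT), the TATA box (TATAAA), the GC box (GGGCGG), the E-box (CACGTG), the core of the NRF1 motif (GCGCATGC), the core of the ATF4 element (TGATGNAA) and the ERR half-site (AAGGTCA), on both strands, and none of those marked in the printed windows overlap. Other steps ran in Python 3.11.15 (pandas 2.3.3, numpy 2.4.6, and matplotlib 3.10.9 for figures). The alternatives were no filter, a minimum mean of 5 TPM, 0.1 as pseudocount, median-ratio scaling, quantile normalization, the replicate number as a block, limma without trend and each library left out.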

Additional observations from a re-analysis of the deposited data

How the results depend on the processing

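BCAT1 was lower and past the threshold in all 13 alternatives, with log2 fold changes from -2.28 to -2.03. With no filter on low values 2567 of 31860 tested genes were called, 5.04% as higher and 3.01% as lower. Of the 32 members 5 were then higher. Of the 43 tested genes of the 4 lists 3 were higher and 1 lower, against 6 and 3 of 37 in the main test. With median-ratio scaling those lists gave 3 higher and 5 lower, and limma without trend gave 2 higher. After quantile normalization 2 members were lower, since BCAT2 joined BCAT1. The cause of these shifts was not tested. With 1 library left out, the count of members that rose lay between 4 and 7 and that of lower members at 1, the higher genes of the lists between 1 and 4 and the lower between 1 and 2, and all called genes between 2493 and 3783. The lowest of these, 2493, was without siNC replicate 1, with 2527 without siBCAT1 replicate 1 and 2556 without siBCAT1 replicate 2. The log2 ratio of BCKDK to PPM1K lay between -0.57 and -0.33 and that of BCAT1 to BCAT2 between -2.19 and -1.89.

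Members with changes near 0, none of them called, changed sign. With median-ratio scaling DBT was at -0.02, HIBCH at -0.0043 and HSD17B10 at -0.03, and after quantile normalization IVD was at -0.03, HSD17B10 at -0.06 and HADHA at -0.02. With 1 library left out, BCKDHB ranged from -0.03 to 0.17, DBT from -0.09 to 0.12, HIBCH from -0.02 to 0.12, HSD17B10 from -0.03 to 0.05 and MMAA from -0.11 to 0.19.

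Same-numbered libraries deviated together with correlations of 0.084, 0.102 and 0.124 over 14286 genes, each the highest for its library. Between libraries of different number the correlations lay between -0.081 and -0.013. The labels do not say whether the numbers pair the samples, and these values cannot settle it. The main test did not pair them. With the replicate block, 4568 genes were called in place of 3865, the 8 members called were kept, and HIBADH (log2 fold change 0.24), ALDH6A1 (0.47) and PCCB (0.25) also passed. TPM without read counts limits what can be said of low genes such as ABAT.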
